A study of Arabidopsis thaliana with 12 samples.

Results

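The effect of NAA (1-naphthaleneacetic acid, a synthetic auxin) on transcript levels was measured among Arabidopsis thaliana seedlings that had all received antimycin A. Of the 12 Affymetrix arrays of the study, the 6 titled NAA +AA and B5 +AA, 3 of each, were set against each other over all 22746 probe sets other than Affymetrix controls. NAA +AA seedlings grew for 10 days on B5, a plant culture medium, then for 3 days on new B5 plates with 4.5 µM NAA, and then received 50 µM antimycin A for 3 hours. B5 +AA seedlings had the same schedule and the same antimycin A treatment on B5 without NAA. NAA -AA and B5 -AA seedlings, 3 arrays each, were on the same media without antimycin A. All were labelled as line Col:LUC in ecotype Col-0 and as biological triplicates. The growth label names seeds of Attim17-1 beside Col-0, whereas no array is labelled as that line, and the labels do not say what Col:LUC carries. They also leave unsaid whether seedlings were pooled within a sample, or whether seedlings without antimycin A received its solvent.

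Auxin is sensed when it brings TIR1/AFB receptors and Aux/IAA repressors together, which marks the repressors for degradation and frees ARF transcription factors. Genes activated early include the Aux/IAA genes themselves, GH3 enzymes that join auxin to amino acids, and LBD factors that start lateral roots. Antimycin A blocks complex III of the mitochondrial respiratory chain, and plants answer such a block with a nuclear programme known as the mitochondrial retrograde response, of alternative respiratory enzymes, detoxification enzymes and chaperones.

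NAA +AA seedlings differed from B5 +AA seedlings at 4994 of 22746 probe sets (22.0%), of which 2779 (12.2%) were higher and 2215 (9.74%) lower. A probe set was called where limma's moderated test, two-sided, gave an adjusted p (Benjamini-Hochberg, over all probe sets) below 0.05. At least 2-fold changes were called at 1149 probe sets (5.05%), 682 higher and 467 lower. In the values as deposited, the larger changes were mostly rises. There were 118 rises and 33 falls of at least 4-fold, and 25 rises and 2 falls of at least 8-fold. Fold changes are differences of group means of log2(intensity + 16), given as log2 values with their SE, and they understate the change of dim probe sets. The split depended on scaling. Median intensities were 38.8 to 39.6 on NAA +AA arrays and 33.7 to 35.7 on B5 +AA arrays, and once arrays were centred on their medians the median log2 fold change moved to -0.13, against -0.01 as deposited, and 2381 probe sets were called higher and 10984 lower. Quantile normalization gave 2537 higher and 2822 lower. Changes of at least 2-fold were 546 higher and 647 lower under median centring, and 629 higher and 503 lower under quantile normalization.

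**Figure D1:**
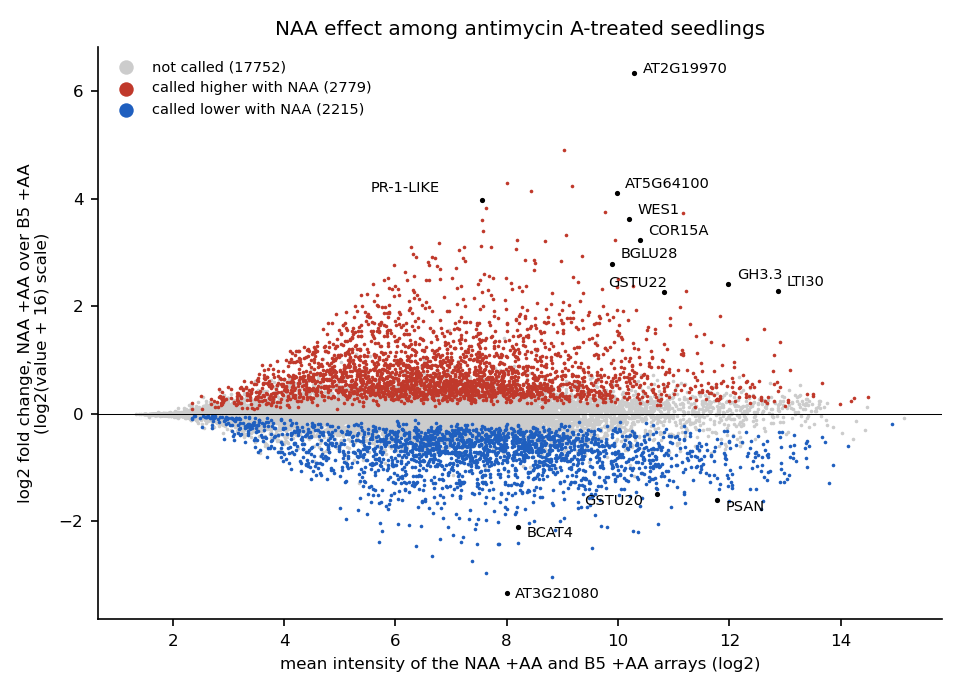
Each point is a probe set, by its mean intensity over the NAA +AA and B5 +AA arrays (log2, x) and its log2 fold change of NAA +AA over B5 +AA on the log2(value + 16) scale (y), in red and blue where called higher (2779) or lower (2215). AT2G19970 stands highest at 6.33 and AT3G21080 lowest at -3.33.

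Arrays of both groups correlated at 0.992 to 0.996 within a group and at 0.965 to 0.973 between groups, over probe sets. Calls were rare among dim probe sets, with 3.38% of 8998 called at a mean intensity under 16, against 41.3% of 1295 at 1024 or above. The 3 arrays of each group did not overlap at 40.7% of probe sets, called or not (39.3% for NAA -AA against B5 -AA). The 25S ribosomal RNA control read 12030 ± 317 in NAA +AA and 8244 ± 175 in B5 +AA seedlings (SD, n = 3 each, as for every mean here). The 3'/5' signal ratio of the GAPDH control, a gauge of RNA integrity, was 11.9, 28.7 and 17.2 on NAA +AA arrays and 10.2, 26.5 and 12.9 on B5 +AA arrays, overlapping between groups and highest in replicate 2 of both. The actin ratio was 260.8 to 314.5 on NAA +AA and 247.2 to 441.9 on B5 +AA arrays. The ubiquitin ratio was 3.89 to 4.61 on NAA +AA and 3.94 to 5.29 on B5 +AA arrays. With all 4 replicate 2 arrays left out, 2692 probe sets were called, 1601 higher and 1091 lower. The part of these measures in the results was not tested.

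Several genes that respond to auxin rose with NAA in antimycin A-treated seedlings. The GH3 list, enzymes that conjugate auxin to amino acids, had 5 measured members, of which 4 rose and none fell, with a median log2 fold change of 1.39. Beside this and every list count below, 12.2% of all probe sets were called higher and 9.74% lower. WES1 (also GH3.5) read 2355, 2033 and 2183 on the NAA +AA arrays, against 179, 164 and 149 on the B5 +AA arrays, so that every NAA +AA array was above every B5 +AA array. Its mean was 2190.0 ± 161 in NAA +AA and 164 ± 14.8 in B5 +AA seedlings (log2 3.62 ± 0.15, adjusted p = 1.71e-06). GH3.3 was the brightest member, at 6042, 6366 and 8034 on the NAA +AA arrays, against 1071, 1164 and 1603 on the B5 +AA arrays (log2 2.41 ± 0.20, adjusted p = 5.97e-05). B5 +AA seedlings thus already had GH3.3 signal without added auxin, against 16.4 ± 7.98 in B5 -AA seedlings. GH3.17 read 172, 111 and 125 on the NAA +AA arrays, against 43.7, 43.8 and 36.6 on the B5 +AA arrays (log2 1.39 ± 0.19, adjusted p = 0.000934). GH3.1 was dim, at 10.3, 28.00 and 23.8 on the NAA +AA arrays, against 4.34, 4.35 and 4.24 on the B5 +AA arrays (log2 0.82 ± 0.25, adjusted p = 0.0429), and lost its call under 10 of 15 alternative settings. GH3.9 read 3.24 in NAA +AA, against 3.37 in B5 +AA seedlings.

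Of 7 measured Aux/IAA repressors 2 rose and 1 fell (2 higher and 4 lower under median centring), and 4 were below 16 on all 12 arrays. IAA29 read 84.3, 75.8 and 94.05 on the NAA +AA arrays, against 5.15, 5.98 and 5.21 on the B5 +AA arrays (log2 2.23 ± 0.10, adjusted p = 2.12e-06). IAA30 read 85.2, 77.4 and 80.8 on the NAA +AA arrays, against 9.85, 12.5 and 13.1 on the B5 +AA arrays (log2 1.80 ± 0.08, adjusted p = 1.74e-06). For both, all 3 NAA +AA arrays lay several-fold above the B5 +AA arrays. IAA18, the brightest member, fell, at 298, 263 and 248 on the NAA +AA arrays, against 327, 379 and 333 on the B5 +AA arrays (log2 -0.34 ± 0.08, adjusted p = 0.0104). The list median was -0.00, beside -0.01 over all probe sets. WAG2, a kinase that acts on auxin efflux carriers, rose to 31.99 ± 7.94 in NAA +AA, against 5.06 ± 0.880 in B5 +AA seedlings (log2 1.18 ± 0.17, adjusted p = 0.00104). The 4 measured YUC genes, which make auxin, were under 16 on all arrays, and none was called by limma or had an unadjusted p below 0.05, while median centring called all 4 lower.

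LBD29 and LBD16, transcription factors that act downstream of ARF7 and ARF19 when lateral roots are founded, both rose. LBD29 read 119, 111 and 104 on the NAA +AA arrays, against 5.90, 5.96 and 6.54 on the B5 +AA arrays (log2 2.52 ± 0.10, adjusted p = 1.71e-06). LBD16 read 96.1, 97.5 and 89.9 on the NAA +AA arrays, against 11.4, 7.53 and 4.84 on the B5 +AA arrays (log2 2.22 ± 0.11, adjusted p = 3.32e-06). The 4 lateral root primordium markers summed to 222 to 239.5 on NAA +AA arrays and 30.7 to 33.8 on B5 +AA arrays, and 3 of 4 rose. LBD29 and LBD16 carried most of the sum on the NAA +AA arrays, though not on the B5 +AA arrays. PUCHI, an AP2 factor of early primordia, was dim at 16.5 ± 0.595 in NAA +AA and 9.27 ± 1.46 in B5 +AA seedlings (log2 0.36 ± 0.05, adjusted p = 0.00136), and CR4 was not called (0.14). In whole seedlings, more cells of a type and more RNA per cell cannot be told apart. The 3 stomatal lineage markers (SPCH, MUTE and FMA) summed to 23.9 to 28.6 on NAA +AA arrays and 29.6 to 29.8 on B5 +AA arrays, near the floor of the array, and none was called by limma or had an unadjusted p below 0.05, while median centring called 2 lower. CLV3 and OLEO3, markers of the shoot meristem and of seeds, read 5.25 or less on NAA +AA and 5.27 or less on B5 +AA arrays.

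**Figure D2:**
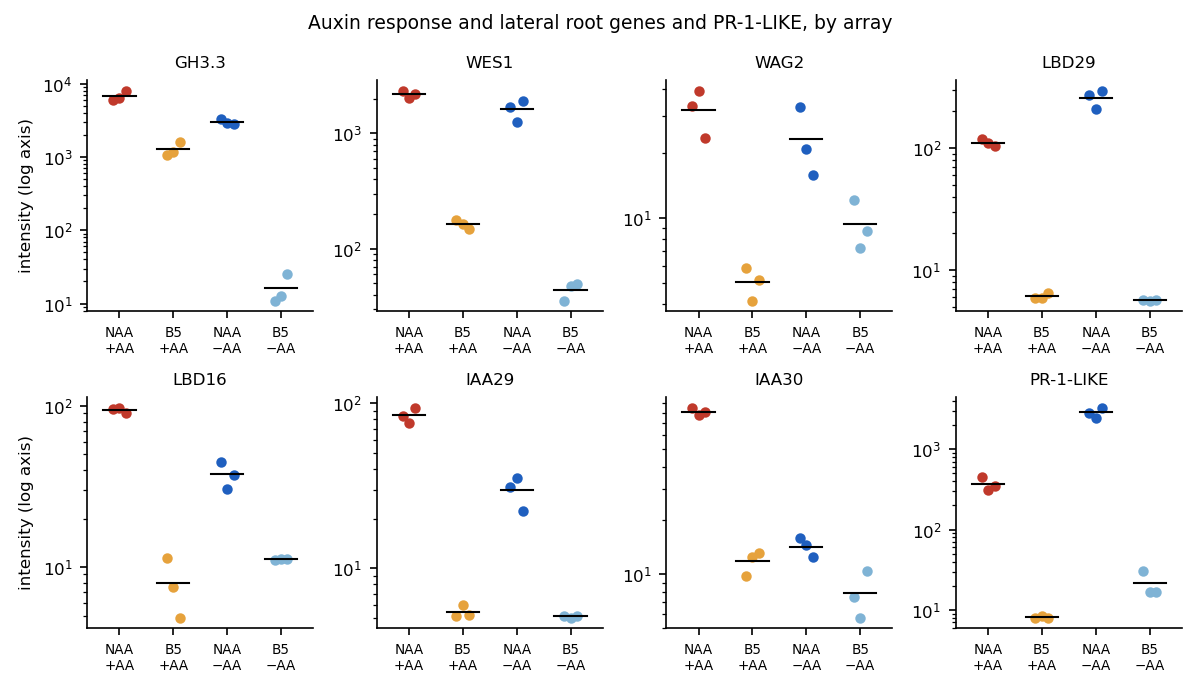
Deposited intensity of 8 genes on each array (points, log axis) with group means (bars), for NAA +AA, B5 +AA, NAA -AA and B5 -AA from left to right. For all 8 the 3 NAA +AA arrays lie above the 3 B5 +AA arrays, and for GH3.3 the B5 +AA arrays lie between 1071 and 1603, far above the B5 -AA arrays. All 8 genes were called, and the largest rises were also picked for separated groups, so the separation is a description only.

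Cell wall genes moved in both directions. Of 15 alpha-expansins and expansin-like genes, whose proteins loosen walls, 5 rose and none fell, with a median of 0.19, while without replicate 2 only 2 rose, and under median centring 4 members were called lower. EXLB1 read 254, 393 and 393 on the NAA +AA arrays, against 63.3, 78.4 and 35.02 on the B5 +AA arrays (log2 2.29 ± 0.26, adjusted p = 0.000349). EXPA18, an expansin of root hairs, read 55.7, 38.95 and 35.9 on the NAA +AA arrays, against 16.01, 16.3 and 15.4 on the B5 +AA arrays (log2 0.89 ± 0.18, adjusted p = 0.00705). EXPA7, the other root hair marker, read 8.20 ± 2.03 in NAA +AA and 4.99 ± 0.331 in B5 +AA seedlings and was not called. None of 4 beta-expansins was called by limma, and 1 had an unadjusted p below 0.05, EXPB2, which read 11.9, 25.4 and 13.7 on the NAA +AA arrays, against 5, 5.41 and 5.58 on the B5 +AA arrays (log2 0.61 ± 0.20, adjusted p = 0.0568), with an adjusted p under the threshold in 4 of 16 alternative settings.

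Of 10 xyloglucan endotransglucosylase/hydrolases (XTH), which cut and rejoin wall glucans, 2 rose and 2 fell, against 2 higher and 5 lower under median centring. Beside this and the following wall lists, 22.0% of all probe sets were called, 12.2% higher and 9.74% lower. XTH19 rose to 944 ± 187 in NAA +AA, against 303 ± 36.04 in B5 +AA seedlings (log2 1.58 ± 0.28, adjusted p = 0.00342), and XTH20 had a log2 fold change of 0.87 ± 0.18 (adjusted p = 0.00795). XTH16 fell (log2 -0.97 ± 0.14, adjusted p = 0.00132), as did XTH18 at 734, 736 and 843 on the NAA +AA arrays, against 1097, 1154 and 1709.5 on the B5 +AA arrays (log2 -0.74 ± 0.21, adjusted p = 0.0326), a call lost under 7 of 16 alternative settings. Among 7 pectin-related genes 2 fell (5 under median centring), PME61 (-0.86) and ATPMEPCRB (pectin methylesterase 41), which read 349, 307 and 402 on the NAA +AA arrays, against 712, 803 and 1487 on the B5 +AA arrays (log2 -1.39 ± 0.27, adjusted p = 0.00591). Of 10 cellulose synthase-like and related genes CSLC5 rose (0.67), and COB, a membrane-anchored protein of oriented cell expansion (-0.49), and CSLC04 (-0.50, lost under 8 of 16 alternative settings) fell. Without replicate 2, 1 XTH gene was called higher and 1 lower, both pectin-related calls were lost, and 1 cellulose synthase-like gene was called, higher. Of 6 class III peroxidases matched by symbol or synonym 2 rose and 1 fell (1 and 0 without replicate 2). Loci without such a match were not counted. Prx37 read 1087, 1457 and 2042 on the NAA +AA arrays, against 540.2, 408 and 552 on the B5 +AA arrays (log2 1.55 ± 0.27, adjusted p = 0.00321), and AT5G66390 (peroxidase 72) read 159.8 ± 34.9 in NAA +AA and 44.8 ± 6.47 in B5 +AA seedlings (log2 1.52 ± 0.28, adjusted p = 0.00446).

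Cell division genes changed little in size. Of 8 measured cell cycle genes 4 rose and none fell, with a median of 0.29, and 1 rose without replicate 2. Beside these and the tubulin and hormone counts, 12.2% of all probe sets were called higher and 9.74% lower. The 4 that rose in the full fit were the Aurora kinases of mitosis, AUR1 at 75.1, 88.2 and 82.2 on the NAA +AA arrays, against 46.5, 45.9 and 60.8 on the B5 +AA arrays (log2 0.55 ± 0.10, adjusted p = 0.00431), AUR2 (log2 0.52 ± 0.11, adjusted p = 0.00885) and AUR3 (log2 0.34 ± 0.06, adjusted p = 0.00492), and the histone H2B gene HTB11 (0.43), whose call was lost under 11 of 16 alternative settings. PRL (MCM7), a subunit of the replicative helicase, was not called (0.13). Of 7 tubulins TUB6 rose (log2 0.41 ± 0.09, adjusted p = 0.00788). Of other hormone genes, 1 of 6 cytokinin response regulators fell, RR16 at 10.9 ± 0.725 in NAA +AA and 15.5 ± 0.841 in B5 +AA seedlings, a call lost under 6 of 15 alternative settings, while median centring called 5 of the 6 lower. The gibberellin receptor GID1A rose by 0.55 on the log2 scale, a call lost under 9 of 16 alternative settings.

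Photosynthesis genes were lower in NAA +AA seedlings. Of 11 measured nuclear photosynthesis genes 8 fell and none rose, with a median log2 fold change of -0.94, where 9.74% of all probe sets were called lower. Their intensities summed to 31419 to 39946 on NAA +AA arrays and 56227 to 64420 on B5 +AA arrays. PSAN, a lumenal subunit of photosystem I, read 2286, 1686 and 1299 on the NAA +AA arrays, against 5139, 6088 and 4643 on the B5 +AA arrays (log2 -1.61 ± 0.18, adjusted p = 0.000272). PSAE-1, on the stromal side of photosystem I, read 5716, 5711 and 4727 on the NAA +AA arrays, against 11539, 12806 and 11229 on the B5 +AA arrays (log2 -1.14 ± 0.08, adjusted p = 2.64e-05). PSBW and PSBY, small subunits of photosystem II, had log2 fold changes of -0.95 ± 0.06 and -0.94 ± 0.11 (adjusted p = 1.93e-05 and 0.000322). The groups stood fully apart in each of these genes, which were picked as called members, and at 40.7% of all probe sets. The antenna genes LHCB4.1 (-1.0) and LHCB4.2 (-1.25) fell, and LHCB4.3 did not pass (0.36). In the Calvin cycle SBPASE fell (-0.69), whereas RCA, Rubisco activase, had -0.34 and PRK, phosphoribulokinase, -0.18, neither called. Without replicate 2, 4 of the 11 were called, all lower.

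Of 10 genes of tetrapyrrole synthesis, the route to haem and chlorophyll, 6 fell and none rose (median -0.64, and 3 fell without replicate 2). Beside this and the plastid counts, 9.74% of all probe sets were called lower. PORB, the light-dependent protochlorophyllide reductase, read 582, 490.4 and 662 on the NAA +AA arrays, against 1830.0, 1487 and 1362 on the B5 +AA arrays (log2 -1.41 ± 0.14, adjusted p = 0.000151). HEME1 (log2 -1.03 ± 0.13, adjusted p = 0.000504), HEMB1 (log2 -0.87 ± 0.11, adjusted p = 0.000662), CHLM, HEME2 and CHLI2 were the others, between -1.03 and -0.61. The chloroplast genome followed in the same direction. Of 69 plastid-encoded genes 37 fell and none rose, 64 had a log2 fold change below 0, and the median was -0.72. Without replicate 2, 18 were called, all lower. The ribosomal protein genes had 12 of 15 lower (median -0.93), the NDH complex 5 of 10 (-0.67), the RNA polymerase 2 of 4 (-0.75), and the photosystem, cytochrome, ATP synthase and Rubisco genes 14 of 33 (-0.59). ccsA, for cytochrome c assembly, read 2077, 2106 and 2223 on the NAA +AA arrays, against 4914, 5295 and 4576 on the B5 +AA arrays (log2 -1.20 ± 0.11, adjusted p = 0.000102). ndhJ read 592, 548 and 652 on the NAA +AA arrays, against 1653, 1863 and 1301 on the B5 +AA arrays (log2 -1.39 ± 0.15, adjusted p = 0.000286), and petA, cytochrome f, had -1.15 ± 0.12 (adjusted p = 0.000183). Plastid genes of a shared transcript are not independent of each other.

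Of 8 measured genes of the retrograde response 1 rose and 4 fell, with a median of -0.44. Over all probe sets 12.2% were called higher and 9.74% lower. AT5G09570 read 823, 935 and 1031 on the NAA +AA arrays, against 297, 207 and 219 on the B5 +AA arrays (log2 1.89 ± 0.20, adjusted p = 0.000211), above in every NAA +AA array. AT2G04070 read 215, 211 and 269 on the NAA +AA arrays, against 621, 403 and 558 on the B5 +AA arrays (log2 -1.12 ± 0.15, adjusted p = 0.000784). AT5G43450 read 3262, 2889 and 3230.0 on the NAA +AA arrays, against 6399.8, 5569 and 6687 on the B5 +AA arrays (log2 -0.99 ± 0.23, adjusted p = 0.0141). AT2G21640 read 2232, 2166 and 2804 on the NAA +AA arrays, against 3691, 3984 and 3824 on the B5 +AA arrays (log2 -0.68 ± 0.19, adjusted p = 0.0291), a call lost under 6 of 16 alternative settings, and AT2G04050 fell too (-0.62). The groups did not overlap in any of AT5G09570, AT2G04070, AT5G43450 and AT2G21640. These were picked as called members, and 40.7% of all probe sets did not overlap, so the separation is a description only. Without antimycin A, AT2G21640 averaged 52.4 ± 17.1 in NAA -AA and 73.2 ± 16.1 in B5 -AA seedlings. NDB2, which oxidises cytosolic NADH at the inner mitochondrial membrane, read 734, 657 and 685 on the NAA +AA arrays, against 672, 401 and 598 on the B5 +AA arrays (log2 0.34 ± 0.20, adjusted p = 0.296), overlapping groups, and AT2G41730 (-0.25) and AT2G32020 (0.19) were not called.

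None of 5 alternative NAD(P)H dehydrogenases was called by limma (1 at an unadjusted p below 0.05), between -0.28 and 0.34, while median centring called 3 lower. Over all probe sets 22.0% were called. Among 8 genes of the cytochrome pathway and respiratory complexes CYTC-2, a cytochrome c, fell, at 1044, 1073 and 1025 on the NAA +AA arrays, against 1749, 1291 and 1611 on the B5 +AA arrays (log2 -0.55 ± 0.13, adjusted p = 0.0179), whereas the other cytochrome c gene CYTC-1 read 8021 ± 262 in NAA +AA and 7128 ± 677 in B5 +AA seedlings and was not called. The 3 measured succinate dehydrogenase genes above the floor (SDH1-1, SDH2-1 and SDH2-2) lay between 0.14 and 0.33 and were not called. Of 11 genes of the mitochondrial genome, 5 of which were called lower and none higher under median centring, nad5 rose (0.33) and nad9 fell (-0.59), calls lost under 10 of 15 and 8 of 16 alternative settings, and another nad5 probe set had -0.23.

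Some heat shock and calcium-binding genes fell, where 9.74% of all probe sets were called lower and 12.2% higher. Of 6 heat shock genes matched to the list 3 fell and none rose (median -0.36), and loci without a match were not counted. AT5G48570 (ROF2), an FK506-binding immunophilin, read 107, 122 and 122 on the NAA +AA arrays, against 357, 303 and 259.8 on the B5 +AA arrays (log2 -1.27 ± 0.10, adjusted p = 5.44e-05). Hsp70-2, a chaperone, had -0.91 ± 0.20 (adjusted p = 0.0115), and Hop2, a co-chaperone, -0.16, a call lost under 10 of 16 alternative settings. Without replicate 2, 1 heat shock gene was called, lower, and under median centring 5 were, all lower. Of 8 calmodulin-like proteins CML41 (-0.75), CML42 (-0.87) and CML30 (-0.48) fell and CML43 rose (0.64, lost under 10 of 15 alternative settings). CML42 read 314, 286 and 292 on the NAA +AA arrays, against 468, 510.0 and 725 on the B5 +AA arrays (log2 -0.87 ± 0.20, adjusted p = 0.0133). All 4 calmodulin-like calls were lost without replicate 2. None of 7 WRKY factors was called by limma (3 at an unadjusted p below 0.05, and 3 called lower under median centring), with WRKY53 at 560.2 in NAA +AA and 809 in B5 +AA seedlings (-0.54). Of 9 U-box ubiquitin ligases PUB24 (-0.77, lost under 5 of 16 alternative settings) and PUB26 (-0.36, lost under 10 of 16 alternative settings) fell.

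Detoxification genes were called in both directions. Of 13 tau and phi glutathione transferases, which couple glutathione to toxic or oxidised compounds, 4 rose and 2 fell, with a median of -0.01. GSTU22 read 2884, 3121 and 3052 on the NAA +AA arrays, against 699, 570.1 and 584 on the B5 +AA arrays (log2 2.26 ± 0.17, adjusted p = 4.05e-05). GSTU25 read 7477, 6232 and 8331 on the NAA +AA arrays, against 3690.0, 2159 and 2652 on the B5 +AA arrays (log2 1.39 ± 0.19, adjusted p = 0.000787). GSTU20 went the other way, at 729, 989 and 845 on the NAA +AA arrays, against 3082, 2081 and 2219.6 on the B5 +AA arrays (log2 -1.50 ± 0.18, adjusted p = 0.000449). The groups were fully apart in these genes, which were picked as called members, and at 40.7% of all probe sets. GSTU27 (0.72) and GSTU23 (0.62) rose and GSTU18 fell (-0.60). Of 51 UGT glycosyltransferases, which attach sugars to hormones and small molecules, 6 rose and 6 fell, where 22.0% of all probe sets were called, and 17 were under 16 on all arrays. Without replicate 2, 3 rose and 3 fell, and under median centring 7 were called higher and 26 lower. UGT73D1 read 35.4, 32.04 and 40.7 on the NAA +AA arrays, against 6.61, 6.84 and 7.01 on the B5 +AA arrays (log2 1.19 ± 0.05, adjusted p = 1.74e-06). UGT73C1 read 152, 119 and 87.1 on the NAA +AA arrays, against 396, 307 and 462 on the B5 +AA arrays (log2 -1.59 ± 0.24, adjusted p = 0.00141), and UGT76E11 (-1.06) and UGT71C5 (-0.55) fell. AT5G52050 (DTX50), an efflux carrier, rose to 128 ± 33.3 in NAA +AA, against 30.1 ± 4.40 in B5 +AA seedlings (log2 1.62 ± 0.16, adjusted p = 0.000173). It was the only measured member of its list. AT2G04070, an efflux carrier counted with the retrograde response, fell (-1.12). Of 12 thiol redox genes the thioredoxin TY1 (0.79) and the glutathione reductase GR1 (0.42, lost under 8 of 16 alternative settings) rose, and the thioredoxins ATHM2 (-0.47, lost under 4 of 16) and TRXF2 (-0.65) fell.

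Of 12 measured dehydration and cold genes 5 rose and none fell (median 0.17), although 3 members were called lower under median centring, and 3 rose without replicate 2. Over all probe sets 12.2% were called higher. LTI30, a dehydrin that protects membranes, was among the brightest genes at 15693, 10759 and 11139.5 on the NAA +AA arrays, against 2479, 2689 and 2407 on the B5 +AA arrays (log2 2.28 ± 0.16, adjusted p = 2.6e-05). COR15A, a cold-regulated chloroplast protein, read 3239, 2525 and 1564 on the NAA +AA arrays, against 134, 369 and 261 on the B5 +AA arrays (log2 3.22 ± 0.47, adjusted p = 0.00122), with the wide spread of both groups in its SE. Its neighbour in function COR15B had 1.20 ± 0.25 (adjusted p = 0.00783), AT2G46140 1.24 ± 0.14 (adjusted p = 0.000392), and COR47, a dehydrin, 0.75. COR27 and RD2 were not called (0.11 and -0.08).

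Several genes of branched-chain amino acid breakdown, autophagy and aldehyde oxidation rose, where 12.2% of all probe sets were called higher. Of 5 measured genes of branched-chain breakdown 3 rose and none fell, with a median of 0.55. IVD, isovaleryl-CoA dehydrogenase, read 160.1, 177 and 193 on the NAA +AA arrays, against 71.8, 67.2 and 64.03 on the B5 +AA arrays (log2 1.20 ± 0.07, adjusted p = 7.07e-06). MCCA and MCCB, the subunits of methylcrotonyl-CoA carboxylase in leucine breakdown, read 176 ± 9.73 in NAA +AA and 60.3 ± 9.10 in B5 +AA seedlings (log2 1.34 ± 0.13, adjusted p = 0.000149) and 197 ± 7.61 in NAA +AA and 131 ± 28.1 in B5 +AA seedlings (log2 0.55 ± 0.13, adjusted p = 0.0135). D2HGDH and ETFQO, mitochondrial enzymes that pass on electrons, were not called (0.31 and 0.24). Of 11 autophagy genes 5 rose and none fell (median 0.29), all of the ATG8 family of autophagosome membrane proteins. ATG8E read 1325, 1484 and 1678 on the NAA +AA arrays, against 540.0, 684 and 735 on the B5 +AA arrays (log2 1.18 ± 0.22, adjusted p = 0.00485). ATG8F (1.04), ATG8H (1.11), ATG8G (0.84) and APG8A (ATG8A, 0.60) were the others, while ATG8B, ATG8C and ATG8D lay between -0.09 and 0.11.

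Of 8 aldehyde dehydrogenases 5 rose and 1 fell (median 0.40, with 3 and 1 without replicate 2). Beside this and the next count, 12.2% of all probe sets were called higher and 9.74% lower. ALDH7B4, a stress-linked member, read 2753, 2916 and 3221 on the NAA +AA arrays, against 1078, 871 and 871 on the B5 +AA arrays (log2 1.64 ± 0.15, adjusted p = 0.000115). ALDH22A1 (0.78) and ALDH10A9 (0.59) rose and ALDH11A3 fell (-0.62). Of 29 serine carboxypeptidase-like genes 9 rose and 1 fell (5 and 0 without replicate 2, and 8 higher and 18 lower under median centring), with 13 under 16 on all arrays. scpl48 read 640.0, 609.9 and 515 on the NAA +AA arrays, against 234, 231 and 249.6 on the B5 +AA arrays (log2 1.24 ± 0.09, adjusted p = 3.37e-05), and scpl35 (1.19), SCPL45 (0.84) and SCPL49 (0.78) rose.

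**Figure D3:**
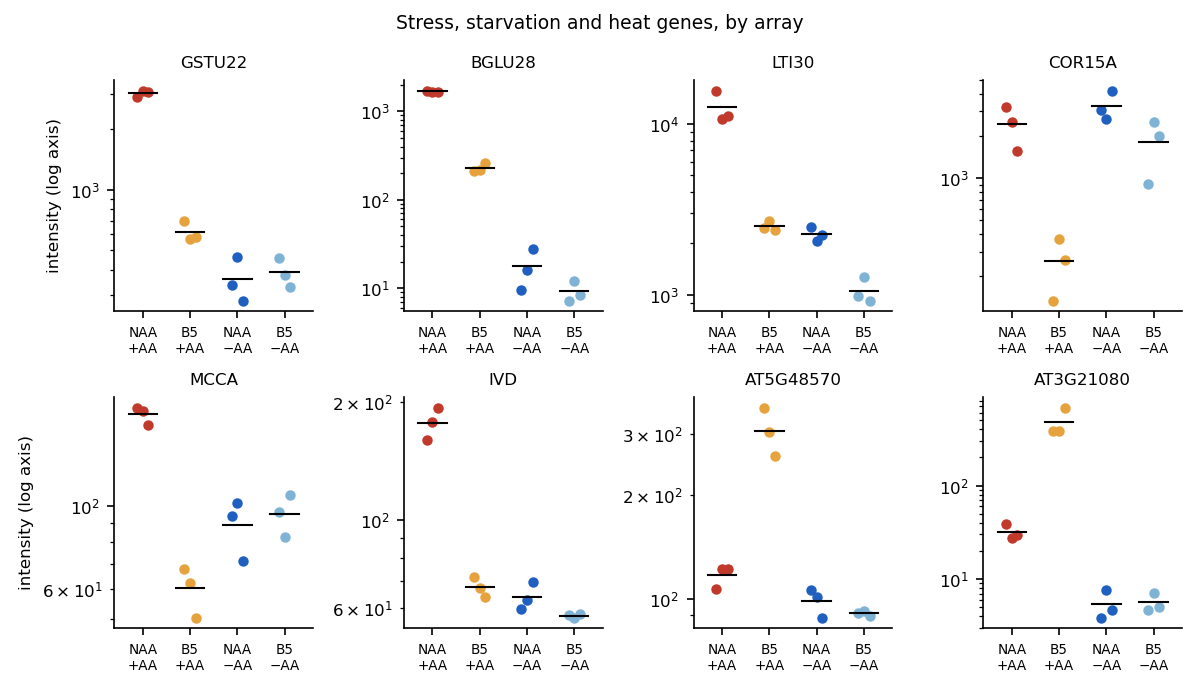
Deposited intensity of 8 stress, starvation and heat genes on each array (points, log axis), with group means (bars), for NAA +AA, B5 +AA, NAA -AA and B5 -AA. GSTU22, BGLU28, LTI30, COR15A, MCCA and IVD are higher on the NAA +AA than on the B5 +AA arrays, and AT5G48570 and AT3G21080 lower.

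Of 23 beta-glucosidase and glucosinolate genes 5 rose and 2 fell, where 12.2% of all probe sets were called higher and 9.74% lower. Median centring gave 6 higher and 12 lower. BGLU28, a beta-glucosidase known from sulfur starvation, read 1721, 1651 and 1671 on the NAA +AA arrays, against 213, 215 and 263 on the B5 +AA arrays (log2 2.79 ± 0.17, adjusted p = 1.3e-05). BGLU15 read 496, 492 and 516 on the NAA +AA arrays, against 151, 158 and 166 on the B5 +AA arrays (log2 1.57 ± 0.19, adjusted p = 0.000481), and BGLU45, linked to lignin precursors, had 1.35 ± 0.16 (adjusted p = 0.000382). PYK10 (BGLU23), the major glucosidase of root ER bodies, rose to 3404 in NAA +AA, against 2354 in B5 +AA seedlings (0.53). BCAT4, which starts methionine chain elongation for aliphatic glucosinolates, read 76.6, 92.8 and 139.6 on the NAA +AA arrays, against 601, 458 and 404 on the B5 +AA arrays (log2 -2.10 ± 0.22, adjusted p = 0.000192), and BGLU27 fell (-0.72). Of 11 pathogenesis-related and defensin genes 4 rose and 2 fell (3 and 0 without replicate 2, and 4 higher and 4 lower under median centring). PR-1-LIKE read 454, 307 and 345 on the NAA +AA arrays, against 8.01, 8.48 and 7.99 on the B5 +AA arrays (log2 3.97 ± 0.18, adjusted p = 2.03e-06), the largest rise of a gene with a symbol. PDF2.5 read 278, 458 and 402 on the NAA +AA arrays, against 58.6, 55.9 and 40.5 on the B5 +AA arrays (log2 2.53 ± 0.33, adjusted p = 0.000745), PDF1.2, a defensin of jasmonate responses, had 1.40 ± 0.39, and LCR69 (PDF2.2) had 0.51 ± 0.07.

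Among transport genes, AT1G59740 (NPF4.3) of the nitrate transporter family read 526, 525 and 475 on the NAA +AA arrays, against 152, 142 and 108 on the B5 +AA arrays (log2 1.82 ± 0.12, adjusted p = 1.8e-05), and 2 of 12 nutrient transporters rose in all, where 12.2% of all probe sets were called higher. Under median centring 2 were called higher and 7 lower. Of 9 iron and metal genes bHLH121, a regulator of iron uptake (0.50), and ZIP9 (0.46, lost under 4 of 15 alternative settings) rose. Neither of 2 reference genes was called by limma (0 at an unadjusted p below 0.05). PEX4 (UBC21), a ubiquitin-conjugating enzyme, read 408, 364 and 393 on the NAA +AA arrays, against 359, 409.7 and 330.0 on the B5 +AA arrays (log2 0.08 ± 0.07, adjusted p = 0.474), a value that turned to -0.03 under median centring, and GAPC2 had 0.19 ± 0.09 (adjusted p = 0.207). NAC014, a NAC factor, rose (0.37, lost under 5 of 16 alternative settings), and EIN3, of ethylene signalling, was not called (0.45). None of the PDC2 and AT3G10040 pair of fermentation and hypoxia genes, nor of STZ and ORA47, stress transcription factors, was called by limma (1 at an unadjusted p below 0.05, all between -0.31 and 0.31). Each of these lists had only 2 measured members, and loci outside them were not counted.

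**Figure D4:**
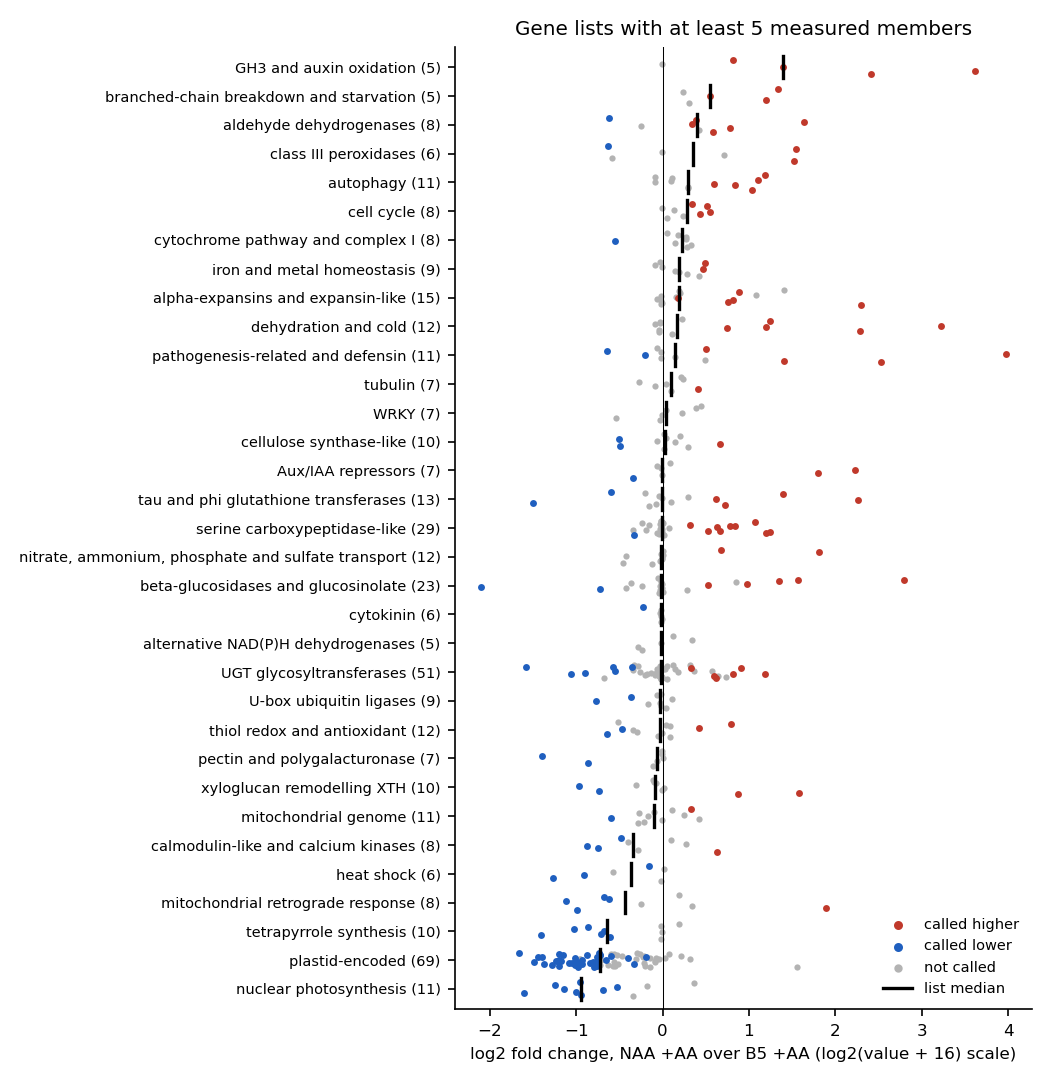
Log2 fold change of NAA +AA over B5 +AA (x, log2(value + 16) scale) of each measured member of the 33 gene lists with at least 5 members (rows, number of members in brackets), red where called higher, blue where called lower, with the list median as a bar. The lists run from GH3 genes (median 1.39) at the top to nuclear photosynthesis genes (-0.94) at the bottom.

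Among called probe sets with an annotated locus and fully separated groups, the 15 largest rises included PR-1-LIKE, WES1, COR15A and 12 loci that carry no symbol in the annotation used. Of these AT2G19970 rose most, at 2817, 2441 and 2223 on the NAA +AA arrays, against 19.4, 14.6 and 11.3 on the B5 +AA arrays (log2 6.33 ± 0.14, adjusted p = 1.93e-07). It averaged 7783 ± 848 in NAA -AA and 81.4 ± 14.3 in B5 -AA seedlings, levels several-fold higher than with antimycin A. Its log2 fold change without antimycin A was also 6.33, on the scale with the constant added to each intensity. The B5 +AA mean of AT2G19970, 15.1, was close to that constant, so the scale understates its change more with antimycin A. Equal fold changes in intensity are therefore not shown. AT5G64100 read 2665, 1476 and 1617 on the NAA +AA arrays, against 101, 105 and 76.1 on the B5 +AA arrays (log2 4.10 ± 0.29, adjusted p = 2.64e-05), and AT5G01870 read 3962, 4796 and 4087 on the NAA +AA arrays, against 368, 326 and 238 on the B5 +AA arrays (log2 3.73 ± 0.23, adjusted p = 1.3e-05). AT5G54370 averaged 674 ± 153 in NAA +AA and 22.4 ± 1.51 in B5 +AA seedlings (4.14). The other 8 had log2 fold changes of 2.89 to 3.83, in AT3G19200 (3.83), AT1G33790 (3.60), AT1G50060 (3.39), AT4G27450 (3.23), AT5G09480 (3.07), AT4G26010 (2.91), AT1G68850 (2.89) and AT4G10270 (2.89). Among these 8, AT4G10270 and AT4G27450 were the most variable, with SE of 0.45 and 0.32. Of the 15 largest rises 13 were also called higher without antimycin A.

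The 15 largest falls, chosen in the same way, held 1 gene with a symbol, BCAT4. Of the 15 AT3G21080 fell most, at 38.4, 27.4 and 29.5 on the NAA +AA arrays, against 385, 379 and 679 on the B5 +AA arrays (log2 -3.33 ± 0.20, adjusted p = 1.19e-05). It averaged 5.43 ± 2.04 in NAA -AA and 5.64 ± 1.35 in B5 -AA seedlings, so that its signal stood near the floor without antimycin A on either medium. AT1G52560 read 9.38, 13.6 and 20.98 on the NAA +AA arrays, against 136, 160.2 and 155 on the B5 +AA arrays (log2 -2.45 ± 0.12, adjusted p = 3.81e-06), and AT4G03450 read 5.17, 5.39 and 6.37 on the NAA +AA arrays, against 74.6, 104 and 118 on the B5 +AA arrays (log2 -2.39 ± 0.11, adjusted p = 2.92e-06). AT1G49000, AT5G59680, AT2G20142 and AT3G48640 had a similar profile, with means of 95.5 or more in B5 +AA seedlings and under 10 in both groups without antimycin A. AT2G42220 was brighter, at 304, 317 and 288 on the NAA +AA arrays, against 1475, 1407 and 1171 on the B5 +AA arrays (log2 -2.09 ± 0.10, adjusted p = 2.21e-06), and was also lower with NAA without antimycin A (-1.36). AT4G30450 (-2.64), AT1G66100 (-2.19), AT2G43550 (-2.00), AT2G32160 (-2.05) and AT5G03350 (-2.26) fell as well. Without antimycin A, AT1G66100 (-2.30), AT2G43550 (-1.73), AT4G30450 (-1.01) and AT2G32160 (-0.74) were also called lower, and AT5G03350 (-0.62) was not called. In all, 5 of the 15 largest falls were called without antimycin A. AT2G37870 (log2 -2.41 ± 0.63, adjusted p = 0.023) lost its call under 4 of 16 alternative settings.

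The NAA effect among antimycin A-treated seedlings was then set beside the NAA effect without antimycin A (NAA -AA minus B5 -AA), which rests on other arrays and shares only the estimate of spread. Without antimycin A 4637 probe sets (20.4%) were called, 2437 (10.7%) higher and 2200 (9.67%) lower, and 1075 (4.73%) of them at least 2-fold. Both comparisons called 2325 probe sets, which were 46.6% of the calls with and 50.1% of the calls without antimycin A. Of these 1211 were higher in both, 923 lower in both and 191 opposite in direction. Across probe sets, which are not independent replicates, the NAA effects correlated at r = 0.56 as a description. The difference between the NAA effects, with minus without antimycin A, was tested in the same fit and called at 2168 probe sets (9.53%), 1170 (5.14%) above 0 and 998 (4.39%) below. Without replicate 2, 506 were called.

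**Figure D5:**
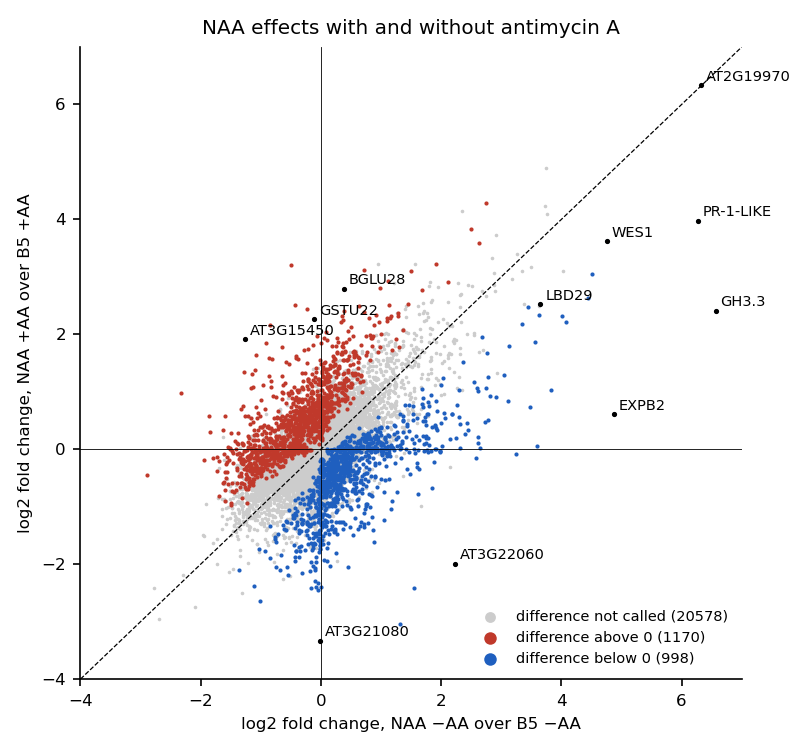
Each point is a probe set, by its log2 fold change of NAA -AA over B5 -AA (x) and of NAA +AA over B5 +AA (y), coloured where the difference was called above 0 (red, 1170) or below 0 (blue, 998), with the line of equal effects dashed. GH3.3 and EXPB2 lie far below the line, and BGLU28 and GSTU22 above it.

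The difference was below 0 for some auxin genes and above 0 for others. The GH3.3 difference was -4.16 ± 0.28 (adjusted p = 0.000121), with NAA effects of 2.41 with and 6.57 without antimycin A. GH3.3 averaged 6814 ± 1069 in NAA +AA, 1279.7 ± 284 in B5 +AA, 3003 ± 242 in NAA -AA and 16.4 ± 7.98 in B5 -AA seedlings, and the B5 +AA arrays were all above the B5 -AA arrays. LBD29 (-1.13 ± 0.15, adjusted p = 0.00221) and WES1 (-1.14 ± 0.22, adjusted p = 0.013) also had smaller effects with antimycin A. IAA30 (1.46 ± 0.11, adjusted p = 0.000183), LBD16 (1.25 ± 0.15, adjusted p = 0.00184) and IAA29 (1.13 ± 0.14, adjusted p = 0.002) had larger ones. IAA30 averaged 81.1 in NAA +AA against 14.3 in NAA -AA seedlings.

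Among probe sets with an annotated locus EXPB2 had the lowest difference, -4.27 ± 0.28 (adjusted p = 0.000102), with NAA effects of 0.61 with and 4.88 without antimycin A. It averaged 17.00 ± 7.36 in NAA +AA, 5.33 ± 0.298 in B5 +AA, 653 ± 193 in NAA -AA and 6.21 ± 1.66 in B5 -AA seedlings. AT3G22060 changed sign, with -1.99 with and 2.23 without antimycin A (difference -4.22 ± 0.23, adjusted p = 5.11e-05). XTH18 likewise had -0.74 and 1.27 (difference -2.01 ± 0.29, adjusted p = 0.00393). PR-1-LIKE kept a positive effect in both (3.97 and 6.27) with a difference of -2.30 ± 0.25 (adjusted p = 0.0011).

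Among probe sets with an annotated locus, the highest differences were in loci without a symbol. AT3G15450 read 1891, 1742 and 1579.8 on the NAA +AA arrays, against 516, 468 and 375 on the B5 +AA arrays, and averaged 592 ± 44.8 in NAA -AA and 1459.8 ± 295 in B5 -AA seedlings. Its NAA effect was thus 1.91 with and -1.26 without antimycin A, with a difference of 3.17 ± 0.22 (adjusted p = 0.000127). AT3G15630 (2.16 and -0.84), AT5G19120 (1.35 and -1.28) and AT4G33666 (1.38 and -1.09) were opposite in sign in the same way. BGLU28 had 2.79 with and 0.39 without antimycin A (difference 2.40 ± 0.24, adjusted p = 0.000793). GSTU22 (2.38 ± 0.25, adjusted p = 0.000914), MCCA (1.43 ± 0.18, adjusted p = 0.00222) and IVD (1.08 ± 0.09, adjusted p = 0.000399) had NAA effects of -0.12, -0.09 and 0.13 without antimycin A, none of them called.

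For other lists the effects stood side by side as follows. Of the 69 plastid-encoded genes 37 fell with and 34 without antimycin A, and the difference was called for none by limma (4 at an unadjusted p below 0.05). Of the 11 nuclear photosynthesis genes 8 fell in each comparison, and the difference was below 0 and called for 2, PSBW (-0.67 ± 0.09, adjusted p = 0.00251) and PSAE-1 (-0.72 ± 0.11, adjusted p = 0.00524). None of the 3 heat shock genes that fell with NAA in antimycin A-treated seedlings was called lower without it. AT5G48570 had 0.10 without antimycin A (difference -1.36 ± 0.15, adjusted p = 0.001), Hop2 0.39, a called rise, and Hsp70-2 0.02.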

How the data were processed

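The authors deposited linear intensity values per probe set of the Affymetrix ATH1 array, 1 column per array, and all 12 columns were matched to samples by title. MAS5, RMA and Partek are listed in the submitters' processing notes, without their roles, so the normalization before deposit is unknown. Per the labels' protocols, 400 ng of total RNA went into each labelling. Design choices had assumed log2 values, and log2(intensity + 16) was used in their place.

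The table has 22810 rows, and its 64 Affymetrix controls were not tested. The annotation pairs 13513 probe sets with 1 gene and 503 with several, and leaves 8730 unnamed, among them 2317 of the 4994 calls. Of 13355 genes 13285 matched RefSeq (TAIR10.1), used for symbols only, and the brightest probe set stands for a gene. A single limma model (version 3.58.1, in R 4.3.3) was fitted to all 12 arrays with 4 group means and 8 residual degrees of freedom. P-values measure only the spread between these samples, and 3 arrays per group limit the precision. Exact permutation of 3 against 3 cannot go below p = 0.1. The model was also run on simulated data with independent noise and few changed probe sets, which cannot speak to scaling or array quality.

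The members and the 62 gene lists, of which 50 had measured members, were chosen by symbol with earlier results of these data known. A list's count covers its measured members alone. Of 13355 genes 11750 carry a locus code in place of a symbol. Further members of a family can thus stand outside its list, also among the largest changes. The share to set beside each count is that over all probe sets, 12.2% called higher and 9.74% lower. Named genes are the 15 genes that rose most and the 15 that fell most with separated groups, up to 4 called members per list by adjusted p, the 8 highest and 8 lowest called differences, and GH3.3, WES1, LBD29, NDB2 and the reference genes, while further list members were named after their values were seen. UPOX, also on that rule, matched no symbol in the annotation used. Its probable locus, AT2G21640, was measured and stands in the retrograde list by locus code. Alternatives were other scalings, pseudocounts (1 and 64), a filter on dim probe sets (mean under 32), variance models, array weights, separate fits of 6 arrays, a replicate block and left-out arrays.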

Additional observations from a re-analysis of the deposited data

Results flagged for a closer look

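Named genes are listed here where the NAA effect with antimycin A differed from that without it by limma's test of the difference (adjusted p below 0.05), given as the log2 difference, with minus without antimycin A. The difference was above 2 for AT3G15450 (3.17), AT3G15630 (3.00), AT5G19120 (2.63), AT4G33666 (2.48), AT5G62360 (2.47), AT1G31690 (2.45), AT2G24550 (2.41), BGLU28 (2.40), GSTU22 (2.38), AT5G66390 (2.11) and scpl35 (2.02). It was between 1 and 2 for IAA30 (1.46), MCCA (1.43), AT5G52050 (1.43), AT3G19200 (1.33), BGLU45 (1.27), LBD16 (1.25), UGT73D1 (1.20), LTI30 (1.19), IAA29 (1.13), IVD (1.08) and AT2G26690 (1.01). It was below 1 for XTH20 (0.99), GID1A (0.97), AT1G33790 (0.96), ALDH7B4 (0.90), SCPL45 (0.88), bHLH121 (0.82), CSLC5 (0.79), ATG8F (0.76), SCPL49 (0.73), RR16 (0.70), LCR69 (0.69) and EXLA2 (0.19).

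The difference was below -2 for EXPB2 (-4.27), AT3G22060 (-4.22), GH3.3 (-4.16), AT2G37870 (-3.96), AT3G21080 (-3.32), AT3G61930 (-2.80), AT4G22610 (-2.74), AT2G18690 (-2.52), AT1G52560 (-2.40), AT4G03450 (-2.38), PR-1-LIKE (-2.30), AT1G49000 (-2.28), AT5G59680 (-2.25), ATPMEPCRB (-2.02) and XTH18 (-2.01). It was between -2 and -1 for AT2G20142 (-1.97), AT3G48640 (-1.91), AT4G30450 (-1.64), UGT73C1 (-1.60), BCAT4 (-1.41), AT5G48570 (-1.36), AT5G43450 (-1.34), AT2G32160 (-1.31), WES1 (-1.14), LBD29 (-1.13) and AT2G04070 (-1.07). It was between -1 and 0 for scpl48 (-0.78), AT2G42220 (-0.73), PSAE-1 (-0.72), PSBW (-0.67), PUCHI (-0.64), UGT71C5 (-0.63), Hop2 (-0.54) and COB (-0.44). The same arrays enter every difference, so that these values are not independent of each other.

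Outside the probe sets tested, the 25S ribosomal RNA control probe set averaged 12030 ± 317 on NAA +AA arrays, above the 8244 ± 175 on B5 +AA arrays (SD, n = 3 each). Without antimycin A it averaged 6081 ± 477 in NAA -AA and 5385 ± 347 in B5 -AA seedlings.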

How the results depend on the processing

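Of 149 named genes, 93 kept their call and direction under every alternative that gave a value, 55 lost or gained the call in at least 1, and PEX4 turned to -0.0333 under median centring. Median centring gave 13365 calls with antimycin A (10984 lower) and 12002 without it (9866 lower). At least 2-fold rises numbered 1038 with log2(value + 1), and with log2(value + 64) there were 616 such changes, 345 higher and 271 lower. Without replicate 2 of any group, chosen after seeing the data and with fewer arrays by construction, the calls were 2692 (1601 higher, 1091 lower) with antimycin A, 2345 (1200 and 1145) without it and 506 (280 and 226) for the difference. Leaving out 1 array at a time gave 3934 to 4518 calls with antimycin A (2241 to 2489 higher, 1693 to 2029 lower), with 1072 to 1203 of at least 2-fold (641 to 700 higher, 431 to 507 lower). It gave 3400 to 4671 calls without antimycin A (1783 to 2468 higher, 1617 to 2203 lower) and 1578 to 2325 for the difference (832 to 1223 higher, 701 to 1102 lower). Same-numbered arrays of NAA +AA and B5 +AA had deviations correlated at 0.05, 0.26 and 0.08 for replicates 1, 2 and 3. The best correlation with another number was 0.07, -0.10 and 0.05, so only replicate 1 correlated better with another number. The numbers were not taken as pairs in the main fit. With the replicate block 5012 probe sets were called, 2771 higher and 2241 lower. The fit of 6 arrays alone called 3706. Dim probe sets limit the comparison, with 8998 at a mean intensity under 16. The cause of these shifts was not tested.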
